A study of Arabidopsis thaliana with 39 samples.

Results

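Of the 806 genes in the deposited table of Arabidopsis root epidermis, 83 were higher after 6 h on fresh +Fe medium than at the start of the time course, were not higher after 6 h on -Fe medium, and were within a set threshold of each other on -Fe and +Fe medium after 36 h. They were chosen by the values at 0, 6 and 36 h, as log2 ratios of RPKM + 1 with a threshold of 0.75, a change of 1.68-fold. RPKM divides the reads of a gene by its length and by the size of the library, so levels of different genes can be set side by side. The ratio to 0 h had to reach 0.75 on +Fe medium after 6 h and to stay under 0.75 on -Fe medium after 6 h, and the ratio of -Fe to +Fe after 36 h had to lie between -0.75 and 0.75. A set of 10 other genes was left out by name, of which 2 met the rule (GL2 and DIN4). The rule thus used 5 groups, and the 8 groups at 12, 18, 24 and 30 h were not used by it. The 806 genes are named in the deposit as differentially expressed, and how they were chosen is not given. That choice may have drawn on the same 8 groups, so differences between media at these times may not be independent of it.

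Seedlings of the pWER::GFP line were moved on day 7 to fresh +Fe or -Fe medium, and the GFP-positive root protoplasts were sorted by fluorescence. The WER promoter drives GFP in the root epidermis and in the lateral root cap next to it. The 6 -Fe groups were taken at 6, 12, 18, 24, 30 and 36 h, the 6 +Fe groups at the same times, and a single +Fe group at 0 h was the start for both media. By the sample labels, -Fe medium had 300 μM ferrozine, an iron chelator, and lacked the 0.1 mM FeEDTA of +Fe medium, whereas the methods describe FeEDTA in both. Each of the 13 groups had 3 libraries by the labels, but the table holds 1 value per gene and group. There is no spread, test or p-value for any value below, and every difference is one between single values. The paper tested its replicates with edgeR and reports differentially expressed genes at each time, but those calls are not shown here.

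The root epidermis takes up iron and other minerals and is built of files of hair and non-hair cells, whose fate is set by a complex of MYB, bHLH and WD-repeat proteins. In that complex GL3 is a bHLH partner of WER, and GL2 and TTG2 act downstream of it in non-hair cells. Plant cells that grow or divide also need new ribosomes, whose assembly starts in the nucleolus with the transcription and modification of ribosomal RNA.

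The 806 genes are a selected set, and their values are fractions of a total over these same genes, since the sums of RPKM times exon length varied by 0.325% (coefficient of variation) between groups. The 10 genes with the largest share of that total held between 24.9% and 32.2% of it, and none of them was a member. The members held between 1.34% and 4.55%. Read depth is unknown. Of 6 root epidermis markers only GL2 was in the table, at 98.1 to 409.8 RPKM (lowest and highest of the 13 groups). BRN1 (listed as NAC015), a root cap marker and the only one of 3 in the table, stood at 1384 to 2057 RPKM with ratios of -Fe to +Fe between -0.08 and 0.14. No marker of endodermis, cortex, stele, quiescent centre or shoot was in the table, so a change in the mix of sorted cells was not tested. In sorted bulk samples, fewer cells of a type and less RNA per cell cannot be told apart.

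At 6 h, the values that chose the members had a median log2 ratio to 0 h of 0.31 on -Fe medium and 1.41 on +Fe medium, beside -0.09 and -0.22 over all genes. By the rule, 0 and 83 of the members were past the threshold on -Fe and +Fe medium, where 15.3% and 28.2% of all genes were. The plot of both 6 h changes shows that the members are the upper left part of one continuous cloud of genes rather than a separate group. Just inside the threshold on +Fe medium lay AT5G15680 and AT1G29290, both at 0.77, and just outside lay AT5G61140 at 0.70 and GLB1 at 0.71. On -Fe medium AT5G53490 at 0.72 and PLPB at 0.73 were just inside, and CPK27 at 0.76 and SCO1 at 0.79 just outside. Of the 113 genes that met both 6 h conditions, 28 were dropped by the 36 h condition, 21 of them lower on -Fe medium and 7 higher. At 36 h the members closest to the lower limit were AT1G67480 at -0.69 and AT1G62770 at -0.68 (outside AT1G36060 at -0.75 and WR3 at -0.84), and those closest to the upper limit were AT1G79150 at 0.68 and AT4G25730 at 0.55 (outside MTK at 0.96 and AT3G48410 at 1.07).

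**Figure D1:**
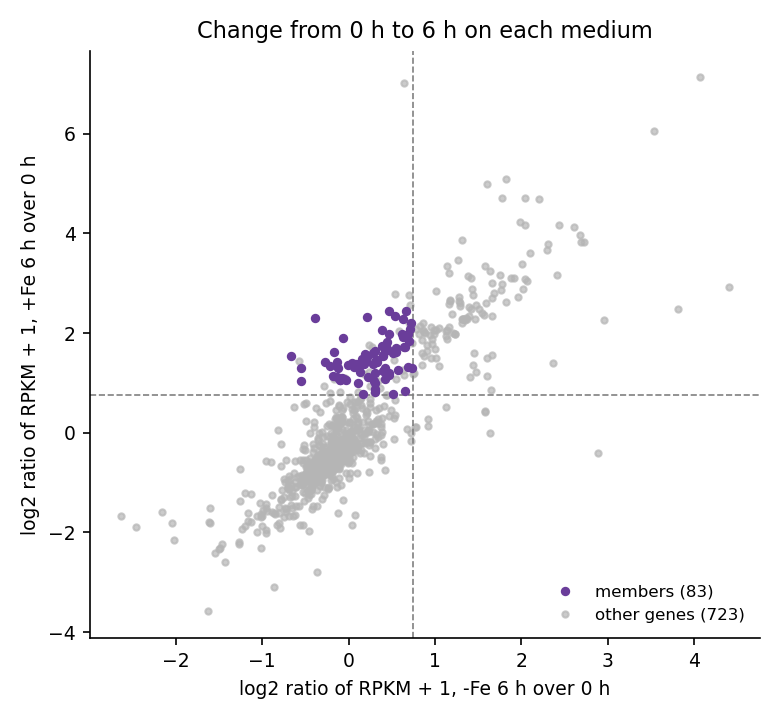
Change of every gene of the table from 0 h to 6 h on -Fe medium (x axis) and on +Fe medium (y axis), as log2 ratios of RPKM + 1, with the 83 members in purple and the other 723 genes in grey. Dashed lines mark the threshold of 0.75. These values chose the members, which sit above the horizontal line and left of the vertical one.

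The rise on +Fe medium was not confined to 6 h. On +Fe medium 74 members were past the threshold above 0 h after 12 h (26.3% of all genes were), 20 after 18 h (16.0%), 75 after 24 h (25.2%), 44 after 30 h (142 of the 806 genes) and 2 after 36 h (5.58%). The median member stood at 57.7 RPKM at 0 h. On +Fe medium it then stood at 138, 133, 81.6, 127, 98.0 and 52.6 RPKM from 6 to 36 h, so that the course had a high stretch at 6 and 12 h, a dip after 18 h, a return after 24 h and a decline to the starting level by 36 h. The highest +Fe value came after 6 h in 51 members, after 12 h in 17, after 24 h in 13 and after 18 h in 2. All these ratios share the 0 h group that chose the members, and a low 0 h value raises each of them. By the methods the seedlings grew in a daily cycle of light and dark. On both media, ratios to 0 h other than those after 24 h thus also compare different times of day. The part of that cycle in the course was not tested.

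On -Fe medium the same genes stayed closer to 0 h. The median member stood at 54.6, 68.5, 72.0, 39.7, 40.3 and 54.7 RPKM from 6 to 36 h. Past the threshold above 0 h were 10 members after 12 h (11.3% of all genes), 17 after 18 h (10.9%), 0 after 24 h (4.96%), 2 after 30 h (5.96%) and 1 after 36 h (9.68%). Past it below 0 h were 8 members after 24 h (12.2% of all genes) and 18 after 30 h (17.7%). The highest of all 13 values was on -Fe medium in 1 member, AT1G76740, an uncharacterized gene.

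**Figure D2:**
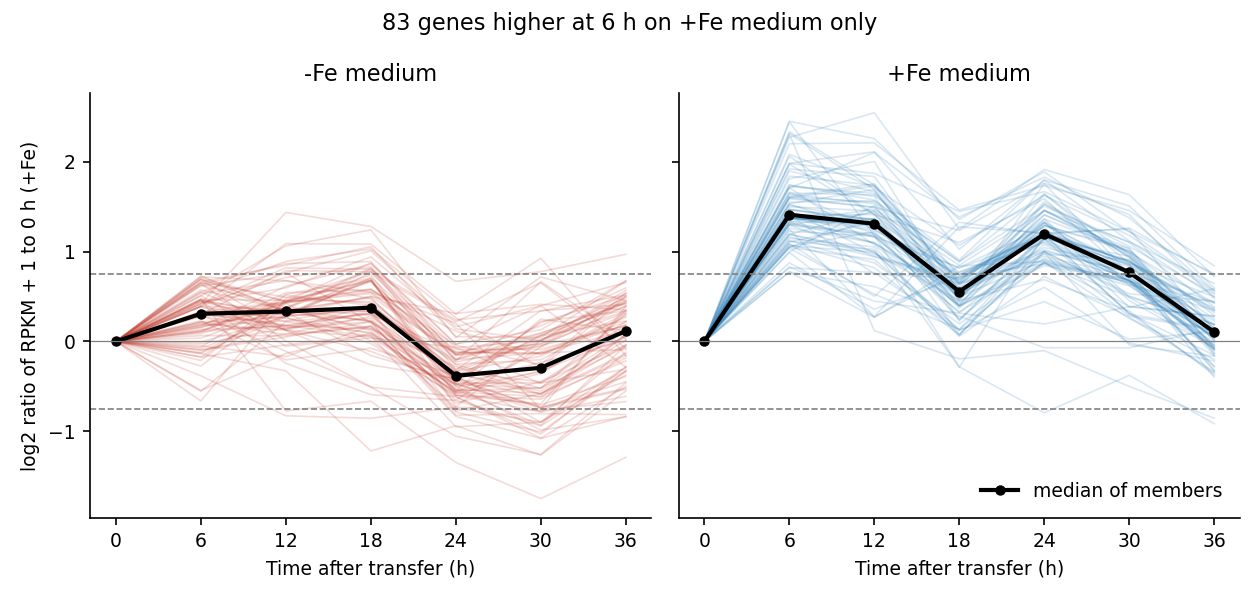
Log2 ratio of RPKM + 1 to 0 h (y axis) over time after transfer in h (x axis) for the 83 members on -Fe medium (left) and +Fe medium (right), with 1 thin line per gene, the median in black and the threshold dashed. The median on +Fe medium stands at 1.41, 1.31, 0.56, 1.20, 0.77 and 0.11 from 6 to 36 h, and on -Fe medium between -0.38 and 0.38.

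Between the media, at times the rule did not use, the members were lower on -Fe medium at 12, 24 and 30 h and near the +Fe level after 18 h. Past the threshold below +Fe were 64 members after 12 h (23.6% of all genes), 9 after 18 h (11.4%), 77 after 24 h (30.1%) and 59 after 30 h (26.2%). Over the members, the log2 ratio between media had a median of -1.01 after 12 h, -0.15 after 18 h, -1.55 after 24 h and -1.09 after 30 h, against 0.07, 0.02, 0.02 and -0.02 over all genes. At 18 h the members' share of 10.8% was thus near the background. Above +Fe by the threshold were 2 members after 12 h (10.8% of all genes), AT1G76740 and ATR, and none at 18, 24 or 30 h (6.82%, 9.31% and 11.3%). At 6 and 36 h, which the rule used, 70 members (23.3% of all genes) and 0 members (13.8%) were past it below +Fe. The gap after 24 h was the largest of the 4 in 67 members, with -Fe values below 0 h (median -0.38) and +Fe values above it (median 1.20).

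**Figure D3:**
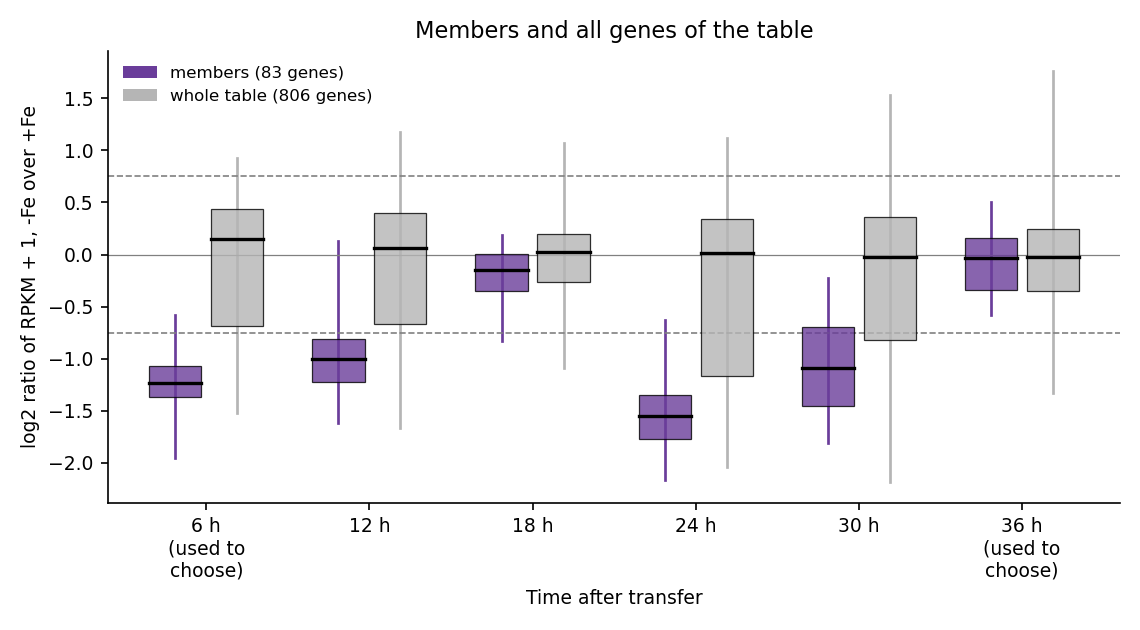
Log2 ratio of RPKM + 1 of -Fe to +Fe medium (y axis) at each time (x axis) for the 83 members (purple) and all 806 genes (grey). Boxes run between the quartiles, black lines are medians and thin lines run between the 5th and 95th percentiles over genes. The members lie below 0 at 12, 24 and 30 h and around 0 after 18 h, and the 6 and 36 h values were used to choose them.

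Counted per gene over 12, 18, 24 and 30 h, 52 of the 83 members were past the threshold below +Fe at 3 or 4 of these times, against 22.6% of all genes. In 43 of the 52 the time that missed was 18 h. The 9 that passed at all 4, a share of 10.8%, were near the 9.68% of all genes that did. A further 17 passed at 2 times, 10 at 1 and 4 at none (AZG2, PRT6, AT1G76740 and AT1G29290), where 551 of the 806 genes (68.4%) passed at none. The 114 genes of the table that were past the threshold above 0 h after 6 h on both media had median between-media ratios of -1.34 after 12 h, -0.71 after 18 h, -1.54 after 24 h, -1.76 after 30 h and -0.75 after 36 h. At 18 h 56 of these 114 were past the threshold below +Fe, a share of 49.1%, beside 9 of the 83 members. The 36 h condition was set for the members and not for the 114, of which 57 were past the threshold below +Fe after 36 h. The part of that condition in the 18 h difference was not tested. The rule sets the 36 h values of the members, and no test of either difference was possible.

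In the account of single genes, ratio means the log2 ratio of RPKM + 1 of -Fe to +Fe medium, and lower means past the threshold of -0.75. The counts of each role group below are to be read beside those of all members. At 12, 18, 24 and 30 h, 77.1%, 10.8%, 92.8% and 71.1% of all members were lower, and 23.6%, 11.4%, 30.1% and 26.2% of all genes. No role group was tested against these shares. The transcription factors among the members are GL3, TTG2, HDG7 (a homeodomain protein of the HD-ZIP IV family), ESC (an AT-hook DNA-binding protein) and AT4G12750 (a homeodomain-like regulator). All 5 were lower on -Fe medium at 12 and 24 h, 4 after 30 h and 0 after 18 h, with median ratios of -1.04 (12 h), -1.96 (24 h), -1.31 (30 h) and -0.04 (18 h). GL3 stood at 19.9 RPKM at 0 h. It had 18.8, 24.6, 32.6, 13.7, 15.5 and 22.6 RPKM from 6 to 36 h on -Fe medium, against 44.0, 51.6, 28.5, 64.2, 39.8 and 20.6 RPKM on +Fe medium. Its highest -Fe value, after 18 h, lay between the +Fe values after 18 h and 30 h, and the log2 ratio was -2.14 after 24 h and 0.19 after 18 h. TTG2, a WRKY factor, stood at 65.7 RPKM at 0 h and had 74.8, 90.5, 89.7, 54.7, 45.4 and 81.4 RPKM on -Fe medium, against 172, 161, 92.5, 165, 103 and 83.9 RPKM on +Fe medium. Its curves met at 18 and 36 h, with ratios of -0.04 at both, and stood apart after 24 h with -1.58. Of 9 listed genes of epidermal patterning, a list without GL2, these 2 were in the table, and both are members. GL2, the non-hair fate regulator that was left out of the members by name, had ratios of -1.12, -0.10, -1.64 and -1.33 at 12, 18, 24 and 30 h. HDG7, which shares 1571 exon bases with a gene on the other strand and is less certain for that reason, had 36.9 RPKM on -Fe medium and 152 RPKM on +Fe medium after 24 h.

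**Figure D4:**
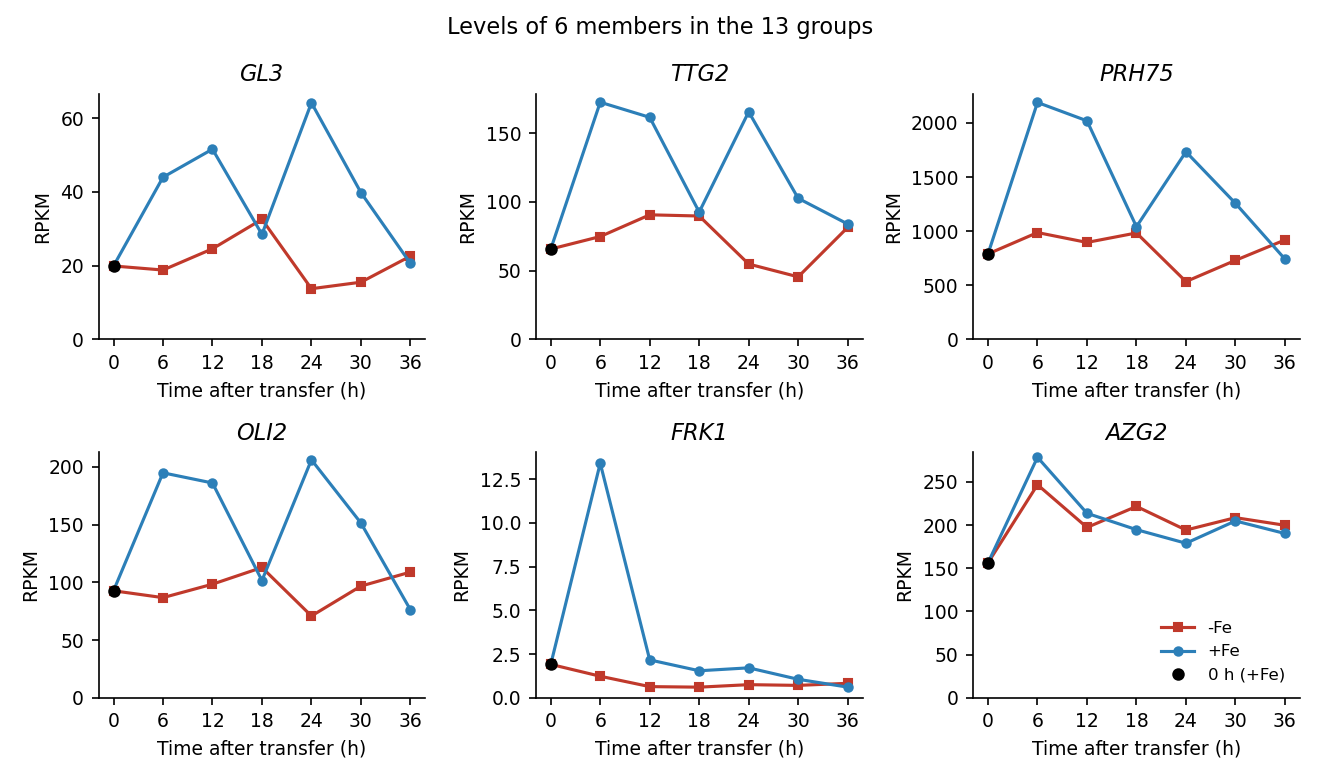
RPKM (y axis, from 0) over time after transfer in h (x axis) for 6 members on -Fe medium (red squares) and +Fe medium (blue circles), with the shared 0 h value in black and 1 value per point. GL3, TTG2, PRH75 and OLI2 have +Fe peaks at 6 to 12 h and 24 h around a dip after 18 h, FRK1 has a single +Fe peak after 6 h, and the lines of AZG2 run together.

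Of the 5 members related to kinases and defence, all were lower on -Fe medium after 12 h, 3 at 24 and 30 h and 0 after 18 h, and 2 of them, FRK1 and EP1, had +Fe values under the 0 h value from 18 h on. FRK1, the receptor-like kinase induced by the bacterial peptide flg22, stood at 1.91 RPKM at 0 h. It had 1.23, 0.641, 0.610, 0.753, 0.711 and 0.830 RPKM from 6 to 36 h on -Fe medium, against 13.4, 2.17, 1.55, 1.71, 1.06 and 0.612 RPKM on +Fe medium. It was the only member with any value under 1 RPKM, and its mean ratio over 12, 18, 24 and 30 h was -0.63 with a pseudocount of 1, -1.11 with 0.1 and -0.12 with 10. EP1, a gene related to receptor-like kinases and known to respond to salicylic acid, stood at 8.88 RPKM at 0 h. Its levels were 12.7, 4.78, 5.23, 2.88, 1.94 and 3.04 RPKM on -Fe medium, against 52.9, 21.4, 7.13, 4.70, 6.61 and 4.23 RPKM on +Fe medium. In both genes the +Fe value after 24 h was below the 0 h value, with ratios to 0 h of -0.10 and -0.79, where 75 members were past the threshold above it. AT1G61430, an S-locus lectin kinase, MLO14, a transmembrane protein of the MLO family, and AT3G15240, a WNK-like protein, were lower on -Fe medium after 24 h with ratios of -1.44, -1.80 and -2.01.

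The largest group that could be formed by role, 13 members, belongs to ribosome production and translation. Roles were assigned to members only, after their values were seen. AT3G48390, which has the MA3 domain of translation initiation factors, was left outside the group, and its ratio after 18 h was -1.01. The share of this role over all genes is thus unknown, and whether it is more frequent among the members was not tested. All 13 were past the threshold below +Fe after 24 h, 11 after 12 h, 8 after 30 h and 0 after 18 h, with median ratios of -1.65 after 24 h, -0.79 after 30 h and -0.02 after 18 h. Past it in the same order of times were 92.8%, 77.1%, 71.1% and 10.8% of all members, and 30.1%, 23.6%, 26.2% and 11.4% of all genes. At 36 h, a time the rule used, 0 of the 13 were past the threshold, and 9 were above 0. AT2G34750 encodes a homologue of RRN3, an initiation factor of RNA polymerase I, the enzyme that makes ribosomal RNA. It stood at 233 RPKM at 0 h and had 292, 289.5, 275, 167, 199 and 235 RPKM from 6 to 36 h on -Fe medium, against 627, 581, 349, 525, 425 and 247 RPKM on +Fe medium. All its +Fe values from 6 to 30 h were above every -Fe value. PRH75, a nucleolar DEAD box RNA helicase, stood at 789 RPKM at 0 h, with 987, 896, 983, 534, 730.1 and 919 RPKM on -Fe medium, against 2189, 2019.7, 1041, 1734, 1257 and 742 RPKM on +Fe medium. Its ratio of 0.31 after 36 h was opposite in sign to -1.70 after 24 h. OLI2, homologous to yeast Nop2, which acts in ribosome production, stood at 92.7 RPKM at 0 h. It had 86.7, 98.4, 113, 70.9, 96.8 and 109 RPKM on -Fe medium, against 195, 186, 102, 206, 151 and 76.2 RPKM on +Fe medium, so that the -Fe value was the higher at 18 and 36 h.

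Other members of the group were also lower after 24 h, and their 36 h values, which the rule used, are given as a description. AT1G79150, a protein with a nucleolar complex domain, had 83.4 RPKM on -Fe medium and 256 RPKM on +Fe medium after 24 h, and 140.3 RPKM and 87.4 RPKM after 36 h. AT3G21540, a nucleolar WD-40 protein, had ratios of -1.73 after 24 h and 0.54 after 36 h. AT4G25730, a methyltransferase with a domain of the yeast ribosomal RNA enzyme Spb1, had -1.72 and 0.55. AT1G10300, a nucleolar GTP-binding protein, had -1.67 and 0.38, and PCN, a WD-40 protein that shares 632 exon bases with a gene on the other strand, had -1.31 and 0.32. NACA2, a subunit of the nascent polypeptide-associated complex, and AT2G43030, a ribosomal protein L3 of the chloroplast type, had -1.65 and -1.29 after 24 h and -0.28 and 0.03 after 36 h.

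**Figure D5:**
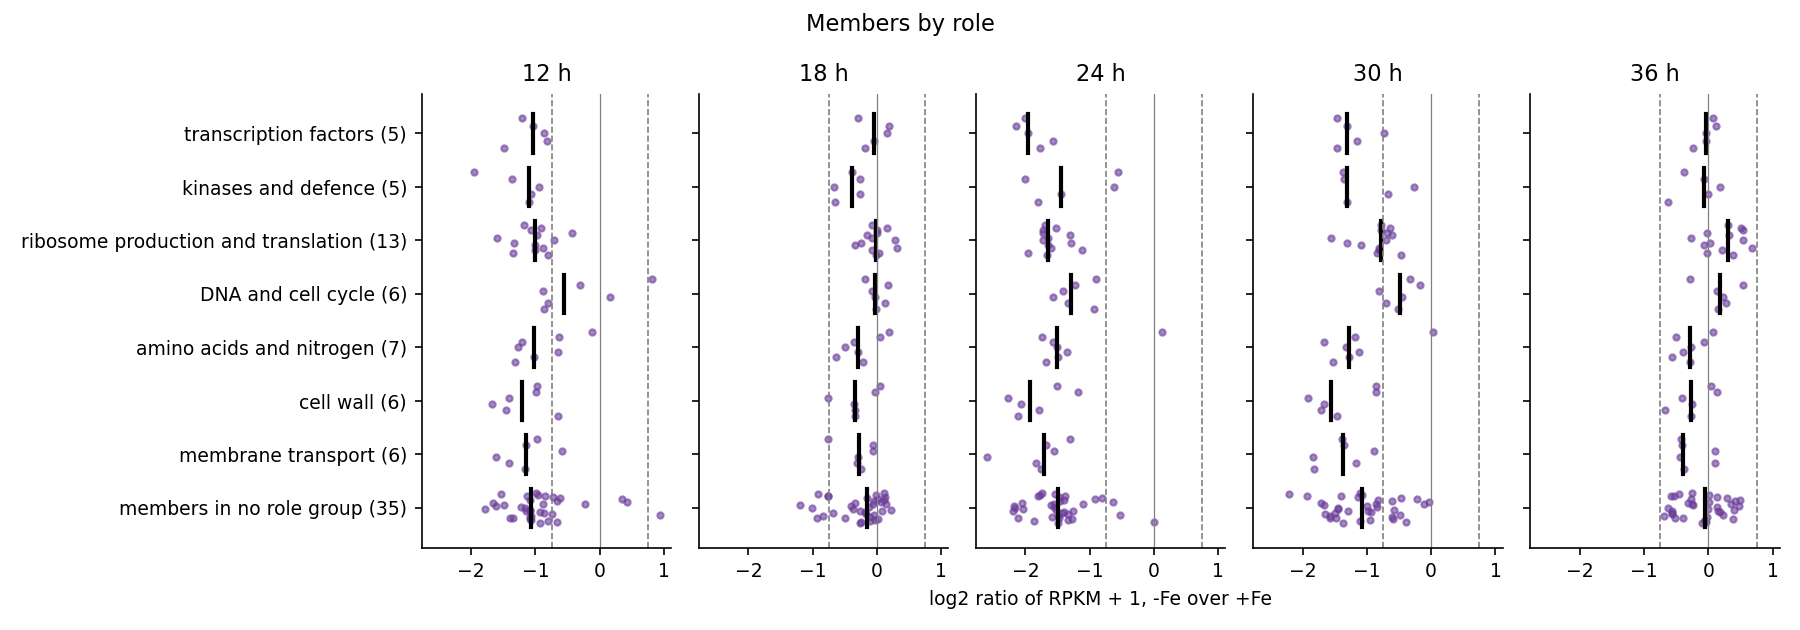
Log2 ratio of RPKM + 1 of -Fe to +Fe medium (x axis) for the members in each role group (rows, with the number of members), 1 panel per time. Points are genes and black bars are group medians. At 24 h all group medians lie left of the threshold line at -0.75, after 18 h they lie between -0.38 and -0.02, and after 36 h the group of ribosome production and translation lies at 0.31.

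Promoters of this group are shown because TGGGCC, the core of the site II element, and AAACCCTA, the telo box, are known from promoters of plant ribosomal protein genes. TGGGCC, on either strand, was in the 300 bases before the gene start in 4 of the 13 members of the group (30.8%), in 15 of 82 members with a sequence (18.3%), in 8.10% of the genes of the table and in 14.6% of all 27443 protein-coding genes. AAACCCTA was in 2 of the 13, in 6 of the 82 (7.32%), in 3.12% of the table and in 5.21% of all. These letters describe the window and not a binding site. The sequences are from RefSeq, build TAIR10.1, written 5′ to 3′ in the direction of the gene with the base before the gene start last. Capitals mark TGGGCC, AAACCCTA and CACGTG, or their reverse complements where the motif is on the other strand. AT1G79150 lies at chr1:29778017-29778316 on the minus strand, with 3 copies of TGGGCC, AT1G72090 at chr1:27123267-27123566 on the plus strand with 1, and NACA2 at chr3:18340634-18340933 on the plus strand with 1 copy each of the 3 motifs.
AT1G79150: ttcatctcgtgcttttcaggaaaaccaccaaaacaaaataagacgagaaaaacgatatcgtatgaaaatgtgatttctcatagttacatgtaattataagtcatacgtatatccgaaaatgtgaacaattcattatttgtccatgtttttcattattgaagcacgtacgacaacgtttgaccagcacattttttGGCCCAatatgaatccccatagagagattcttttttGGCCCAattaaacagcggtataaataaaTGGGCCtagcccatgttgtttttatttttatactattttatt
AT1G72090: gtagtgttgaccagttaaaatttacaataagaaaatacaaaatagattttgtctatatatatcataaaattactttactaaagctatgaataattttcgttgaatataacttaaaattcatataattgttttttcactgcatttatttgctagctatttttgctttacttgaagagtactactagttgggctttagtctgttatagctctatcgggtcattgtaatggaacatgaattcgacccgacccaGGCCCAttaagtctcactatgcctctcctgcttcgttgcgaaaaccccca
NACA2: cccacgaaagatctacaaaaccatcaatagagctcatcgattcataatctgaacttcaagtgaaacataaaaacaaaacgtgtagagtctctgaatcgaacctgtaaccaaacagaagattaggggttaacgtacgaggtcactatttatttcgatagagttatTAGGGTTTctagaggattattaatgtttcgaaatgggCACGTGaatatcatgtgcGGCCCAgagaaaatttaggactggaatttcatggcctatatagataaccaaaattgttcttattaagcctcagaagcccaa

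Of the 6 members that act on DNA and in the cell cycle, all were past the threshold below +Fe after 24 h, 3 after 12 h, 1 after 30 h and 0 after 18 h. TSK, a protein of cell division control and genome maintenance, stood at 18.9 RPKM at 0 h and had 23.5, 25.9, 32.3, 13.4, 22.3 and 24.2 RPKM on -Fe medium, against 38.6, 23.0, 33.0, 41.6, 30.8 and 20.5 RPKM on +Fe medium. The +Fe value was well above the -Fe value at 6 and 24 h and near it at 12, 18 and 36 h. ATR, the checkpoint kinase that responds to stalled replication, stood at 4.17 RPKM at 0 h and had 5.80, 10.0, 9.98, 5.39, 8.84 and 3.64 RPKM on -Fe medium, against 11.3, 5.27, 11.5, 11.0, 11.3 and 4.63 RPKM on +Fe medium. Its ratio was 0.81 after 12 h and -0.90 after 24 h, at low values and with 200 exon bases shared with a gene on the other strand. CYCB2;3, a B-type cyclin, MSI3, a WD-40 repeat protein, and GYRB1, a DNA gyrase subunit of the organelles, had ratios of -0.93, -1.42 and -1.34 after 24 h. CYCB2;3 has a stretch of 182 bases at 99.5% identity elsewhere in the genome, and reads from it may have been split.

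Among the members of amino acid and nitrogen metabolism, 6 of 7 were past the threshold below +Fe at 24 and 30 h, 4 after 12 h and 0 after 18 h. ALDH6B2, the methylmalonate-semialdehyde dehydrogenase of valine breakdown, stood at 163 RPKM at 0 h. It had 268, 222, 243, 177, 147 and 197 RPKM on -Fe medium, against 694, 539, 344, 505, 371 and 238 RPKM on +Fe medium. Of 11 listed genes of branched-chain amino acid breakdown it was 1 in the table, but the list held none of the genes left out by name, such as DIN4, a subunit of the branched-chain keto acid dehydrogenase, whose ratios were -1.51, -0.32, -1.86 and -1.56 at 12, 18, 24 and 30 h. AT1G50110, annotated as an enzyme like D-amino acid aminotransferases, had ratios of -1.32, -0.21, -1.68 and -1.52 at 12, 18, 24 and 30 h. NIT2, a nitrilase that can convert indole-3-acetonitrile to auxin, was among the 5 most abundant members. It stood at 908 RPKM at 0 h and had 1126, 1170.3, 989, 542, 486 and 701 RPKM on -Fe medium, against 2078, 1824, 957, 1819, 1105 and 991 RPKM on +Fe medium. The transporters UPS1, for ureides such as allantoin, and UMAMIT13 were lower on -Fe medium after 24 h with -1.36 and -1.57. The exception was AZG2, a transporter of adenine and guanine, which stood at 156 RPKM at 0 h and had 247, 197, 222, 194, 209 and 199.7 RPKM on -Fe medium, against 278, 214, 195, 179, 205 and 190.2 RPKM on +Fe medium. Its 6 ratios of -Fe to +Fe lay between -0.17 and 0.19, and its ratio to 0 h after 6 h was 0.66 on -Fe medium and 0.83 on +Fe medium, on either side of the threshold.

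All 6 members related to the cell wall were lower on -Fe medium at 24 and 30 h, 5 after 12 h and 1 after 18 h. TT10, a laccase of flavonoid and lignin oxidation, had the lowest mean ratio of all members, -1.59. It stood at 17.1 RPKM at 0 h and had 24.0, 23.9, 28.3, 11.0, 10.2 and 22.1 RPKM on -Fe medium, against 70.6, 65.3, 48.4, 56.6, 41.4 and 29.6 RPKM on +Fe medium. Its lowest +Fe value after 0 h was above every -Fe value. TBL36, of a family that includes proteins needed for cellulose deposition, stood at 14.3 RPKM at 0 h, with 22.8, 26.9, 27.4, 12.8, 14.0 and 20.1 RPKM on -Fe medium, against 73.0, 88.5, 35.5, 56.8, 46.6 and 24.3 RPKM on +Fe medium. CALS1, a callose synthase, AT1G62770, a pectin methylesterase inhibitor, BGAL10, a beta-galactosidase, and AT5G58090, a glycosyl hydrolase, had ratios of -2.11, -1.79, -1.50 and -1.19 after 24 h.

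The 6 members of membrane transport gave the same counts, with 6 lower at 24 and 30 h, 5 after 12 h and 1 after 18 h. DTX1, a MATE efflux carrier of toxic compounds, stood at 11.9 RPKM at 0 h and had 14.0, 12.7, 13.5, 6.25, 5.12 and 6.25 RPKM on -Fe medium, against 63.6, 40.9, 16.8, 42.8, 20.8 and 8.82 RPKM on +Fe medium. The ratio of -2.59 after 24 h was the lowest of any member at any of the 4 times. DTX1 has 448 bases at 97.1% identity elsewhere and shares 283 exon bases with a gene on the other strand. AT2G03240, an EXS family protein, had the largest rise after 6 h on +Fe medium, with a ratio to 0 h of 2.45. It stood at 34.1 RPKM at 0 h and had 54.6, 62.2, 72.0, 35.4, 35.2 and 55.0 RPKM on -Fe medium, against 191, 167, 89.1, 129, 80.8 and 50.9 RPKM on +Fe medium, and it shares 459 exon bases with a gene on the other strand. PAA2, a copper ATPase of the thylakoid, had a ratio of -1.67 after 24 h.

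The 9 members past the threshold below +Fe at all of 12, 18, 24 and 30 h, a share near that of the whole table (9.68%), were AT3G48390, NUDT8, AT1G54870, AT1G67480, PP2-A13, AT5G26740, GDPD2, TT10 and AT5G53490. GDPD2, a glycerophosphodiester phosphodiesterase and the most abundant member, stood at 2448 RPKM at 0 h. It had 3397, 2674, 2267, 1759, 1460.2 and 1691 RPKM on -Fe medium, against 5604, 4802, 3827, 4607, 3854 and 2528 RPKM on +Fe medium, with a ratio of -0.75 after 18 h, just past the threshold. PP2-A13, a carbohydrate-binding F-box protein, had the lowest ratio of all members after 18 h, -1.19. It stood at 27.5 RPKM at 0 h and had 38.1, 23.1, 17.9, 17.1, 13.9 and 21.6 RPKM on -Fe medium, against 89.2, 66.9, 42.3, 54.0, 46.1 and 25.8 RPKM on +Fe medium, and it shares 489 exon bases with a gene on the other strand. AT3G48390, with the MA3 domain of translation initiation factors, and AT1G54870, an aldehyde reductase, had ratios of -1.01 and -0.93 after 18 h and -2.16 and -2.12 after 24 h. With a pseudocount of 10 the means of AT3G48390 and AT1G54870 over the 4 times were -0.82 and -0.93, against -1.45 and -1.50 with 1. NUDT8, a nudix hydrolase, had ratios of -1.13, -0.76, -1.80 and -1.93 at 12, 18, 24 and 30 h, and after 30 h stood at 5.70 RPKM on -Fe medium, against 24.5 RPKM on +Fe medium.

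Promoters of 3 of these 9 genes are shown because they hold CACGTG, the G-box bound by bHLH and bZIP factors. It was in 3 of the 9 (33.3%), in 11 of the 82 members (13.4%), in 9.48% of the genes of the table and in 7.09% of all protein-coding genes. TATCCA, the sugar-response element of the starch amylase genes, was also in 3 of the 9 (33.3%), the same share as CACGTG. It was in 15 of the 82 members (18.3%), in 19.3% of the table and in 16.2% of all. AAAATATCT, the evening element of the clock, was in 0 of the 9, in 3 of the 82 (3.66%), in 2.99% of the table and in 2.79% of all. Each motif was searched on both strands and CACGTG reads the same on either. No motif of the 5 lies within another. Capitals mark CACGTG and TATCCA, or the reverse complement of TATCCA where it is on the other strand. NUDT8 lies at chr5:19183223-19183522, PP2-A13 at chr3:22602516-22602815 and AT1G54870 at chr1:20458652-20458951, all on the plus strand.
NUDT8: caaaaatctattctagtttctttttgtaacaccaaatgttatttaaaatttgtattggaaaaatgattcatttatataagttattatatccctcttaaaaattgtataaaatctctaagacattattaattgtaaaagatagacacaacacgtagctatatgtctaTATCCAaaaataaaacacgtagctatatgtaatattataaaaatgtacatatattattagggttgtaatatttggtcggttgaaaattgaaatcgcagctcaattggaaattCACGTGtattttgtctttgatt
PP2-A13: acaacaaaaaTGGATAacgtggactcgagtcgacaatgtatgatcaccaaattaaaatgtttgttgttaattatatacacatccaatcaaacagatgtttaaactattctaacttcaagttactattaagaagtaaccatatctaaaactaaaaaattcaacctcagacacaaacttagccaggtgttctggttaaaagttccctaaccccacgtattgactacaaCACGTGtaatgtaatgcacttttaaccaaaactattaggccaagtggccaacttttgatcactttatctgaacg
AT1G54870: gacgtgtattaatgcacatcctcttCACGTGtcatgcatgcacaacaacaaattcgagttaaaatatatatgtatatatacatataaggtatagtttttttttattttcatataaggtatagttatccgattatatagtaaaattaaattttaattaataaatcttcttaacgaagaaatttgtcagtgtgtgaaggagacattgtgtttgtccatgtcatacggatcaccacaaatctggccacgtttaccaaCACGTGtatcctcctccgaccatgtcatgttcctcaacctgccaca

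Of the 4 members that were past the threshold below +Fe at none of these times, PRT6, an N-end rule ubiquitin ligase, stood at 37.8 RPKM at 0 h. It had 46.8, 66.1, 65.5, 44.2, 60.1 and 35.8 RPKM on -Fe medium, against 70.2, 48.8, 63.0, 69.6, 61.4 and 35.7 RPKM on +Fe medium, with the -Fe value the higher after 12 h and the lower at 6 and 24 h. AT1G76740 had the same order at lower levels, with 12.9 RPKM on -Fe medium and 6.29 RPKM on +Fe medium after 12 h and ratios of 0.93 after 12 h and -0.53 after 24 h. AT1G29290 stood at 281 RPKM on -Fe medium and 280.4 RPKM on +Fe medium after 24 h. Among the 5 most abundant members, AT1G56220, a dormancy- and auxin-associated protein, had ratios of -1.39, -0.50, -1.48 and -1.48 at 12, 18, 24 and 30 h, and AT5G27920, an F-box protein, had -0.62, -0.16, -0.81 and -0.47. The pigment defective gene pde191 and the putative blue light receptor PLPB had -2.05 and -1.44 after 24 h. The 35 members in no role group had counts of 26, 7, 32 and 25 past the threshold below +Fe at 12, 18, 24 and 30 h.

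Counts of listed genes of other responses are to be read beside the share of members in the table, 83 of 806 genes. At that share a short list would hold few members in any case, and no list was tested against it. Of 28 listed genes of carbon starvation and darkness 8 were in the table and 0 were members. On both media 7 of the 8 were past the threshold above 0 h after 6 h, beside 114 of the 806 genes. Those 8 were lower on -Fe medium in 7, 6, 7 and 7 cases at 12, 18, 24 and 30 h. Of all genes, 23.6%, 11.4%, 30.1% and 26.2% were lower at these times. All 16 listed iron deficiency genes were in the table and 0 were members. Of 9 nitrate genes 4 were in the table, of 24 root hair genes 1 (AHA7), and of 11 genes of wounding, touch and jasmonate 2, with 0 members each. No clock, heat shock or photosynthesis gene of the lists was in the table. Of the 83 members, 29 share exon bases with another gene, 28 of them with one on the other strand, and in 14 at least 100 bases are shared. The values of these genes and of CYCB2;3, AT1G67400, DTX1, AT3G42806 and FAD8, which have near-identical stretches elsewhere in the genome, are less certain.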

How the data were processed

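Per the labels, 39 libraries of sorted pWER::GFP root protoplasts formed 13 groups of 3. The authors aligned reads with TopHat2 to TAIR10, counted them per gene and used edgeR, and deposited RPKM values for 806 genes, 1 per gene and group. How libraries were combined and how the read total was set are not given in the sources used here. The labels name a directional poly(A) kit and the methods a SMARTer kit, so strand use in counting is unknown. The totals of RPKM times exon length were nearly equal, so a ratio is relative to the 806 genes. Low values gave no whole reads (39 of 342 lay within 0.05 of a whole multiple, 11.4%, where 10% do by chance), so read depth and counting error are unknown.

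Log2 ratios of RPKM + 1 were computed with Python 3.11.15, numpy 2.4.6 and pandas 2.3.3, and a gene was called past 0.75. Without replicates no test was run, and the limma fit planned for replicated values was not possible. The members and gene lists were chosen with earlier results of these data known, and the role groups, promoters and motifs were chosen after the values were seen. Genes were named by rule: the 10 largest rises on +Fe medium at 6 h, the 10 most negative and the 10 most positive mean ratios at 12, 18, 24 and 30 h, the 5 most abundant members, listed genes and threshold neighbours. This gave 44 genes, 36 of them members. All other named genes, such as HDG7, ESC, OLI2, AT2G34750 and NACA2, were chosen after their values were seen. Scripts were tested on simulated data. Promoters were the 300 bases before the RefSeq gene start (TAIR10.1). Copies were sought with blastn 2.17.0 (at least 97% identity over 125 bases). Alternatives were pseudocounts of 0.1 and 10, a mean of at least 10 RPKM, median and upper-quartile scaling, totals without the 10 highest genes, and a threshold of 1.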

Additional observations from a re-analysis of the deposited data

Results flagged for a closer look

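ATR, the checkpoint kinase, moved in opposite directions at different times, its log2 ratio between -Fe and +Fe medium being 0.81 after 12 h and -0.90 after 24 h. The same signs at these times were seen in the members AT1G76740 (0.93 and -0.53), PRT6 (0.43 and -0.64), AT5G15680 (0.35 and -0.92) and TSK (0.16 and -1.56). They were also seen outside the members, as in AT1G20960 (0.43 and -0.77), so the pattern is not particular to ATR. The difference between the times was not tested, since each value is single. The mean level of ATR was 7.91 RPKM and it shares 200 exon bases with a gene on the other strand, and the part of either in the result was not tested.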

How the results depend on the processing

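The rule gave 82 members with a pseudocount of 0.1, 90 with 10 (78 shared with the 83), 78 at a mean of at least 10 RPKM, 78 with median centring (77 shared), 84 with upper-quartile scaling (82 shared), 79 without the 10 highest genes (78 shared) and 98 with a threshold of 1 (76 shared). The counts that follow are over the 83 members as first chosen (78 of them under the filter on mean RPKM), not over these new sets. Over the alternatives, those lower on -Fe medium numbered 43 to 66 (12 h), 2 to 10 (18 h), 73 to 78 (24 h) and 44 to 60 (30 h). Of all genes, 18.0% to 24.1%, 6.20% to 11.8%, 27.7% to 30.4% and 22.3% to 26.6% were lower at these times. The members' median ratios at these times stayed below 0. The mean ratios of PRT6 (-0.05) and AT1G76740 (-0.03), neither past the threshold, were above 0 with median centring (0.07 and 0.09), upper-quartile scaling (0.08 and 0.08) and without the 10 highest genes (0.0012 and 0.01). The median over all genes after 30 h, -0.02 as reported, was 0.13, 0.04 and 0.02 in the same order. Lower after 18 h were 3 members with a pseudocount of 10, 5 with either scaling and 2 with a threshold of 1 (9 as reported). Lower at 3 or 4 times were 30 with a threshold of 1 (52). Higher on -Fe medium than at 0 h were 0 after 12 h with a pseudocount of 10 and 3 with a threshold of 1 (10), 5, 6 and 26 after 18 h with a pseudocount of 10, a threshold of 1 and upper-quartile scaling (17), 1 after 24 h with a pseudocount of 0.1, either scaling or without the 10 highest genes (0), and after 30 h 0 with a pseudocount of 10, the filter or a threshold of 1 and 5 with either scaling or without the 10 highest genes (2). Higher on +Fe medium than at 0 h were 13 and 11 after 18 h (20) and 29 and 18 after 30 h (44) with a pseudocount of 10 and a threshold of 1. The cause was not tested. Centring moved all ratios by 0.20 (24 h) and 0.16 (30 h), upper-quartile scaling by 0.17 (12 h) and 0.20 (24 h). Over all genes, 161 were lower and 124 higher on -Fe medium after 12 h with upper-quartile scaling (190 and 87 without), and 227 and 121 after 24 h with either scaling (243 and 75 without). With a pseudocount of 10, the mean ratios of PP2-A13 and AT3G42806 were -1.15 and -0.57. No paired analysis was possible because the deposited columns carry no replicate, and no replicate could be left out.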
